A study of Lens culinaris with 50 samples.

Results

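In lentil, 28 genes were read in the unfertilized ovule and, on average, at no more than a small part of that level in any sampled part of the seed after fertilization. They were chosen from 58243 genes by their measured values. Both ovule libraries had to hold at least 50 normalized reads, and their mean had to be at least 10 times the mean of each of the 24 other groups of libraries. A normalized read is a read divided by the scaling factor of its library, a scale on which libraries can be compared. The list could have held up to 100 genes and 28 met the rule, out of 16049 genes that reached 50 in both ovule libraries. The ovule values and their ratio to other groups therefore chose the genes and are given as a description, with no test.

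The ovule list was compared with what follows it in the same series. Unfertilized ovules, labelled as whole seed tissue, gave 2 libraries. Whole seeds, seed coats and embryos gave 2 libraries each at zygote and quadrant, at globular, heart and torpedo, and at the early bent, late bent and mature stage, which makes 25 groups and 50 libraries. All groups share the cultivar CDC Gold and growth in chambers, and the labels give the same text on emasculated and pollinated flowers for every sample, the unfertilized ovules included. They name no mutant, transgene or treatment that differs between groups. The seed coat is what remained once the embryo had been removed by hand under the microscope, so it can carry other seed tissue, and the ovule was not divided into parts. The libraries held 13019472 to 35634980 reads each.

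An ovule holds the female gametophyte, with the egg cell, its companion synergids and the central cell, wrapped in the maternal nucellus and integuments. Fertilization of the egg gives the embryo and fertilization of the central cell gives the endosperm, while the integuments grow into the seed coat. In Arabidopsis, synergid and egg cell genes that encode small secreted proteins for pollen tube attraction and gamete fusion are known to be turned down after fertilization. The deposited table names genes by identifier alone, with no function, so neither markers of these cells nor the roles of the 28 genes could be checked. In bulk RNA, fewer cells of a type and less RNA per cell cannot be told apart.

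The identifiers all begin with Lcu.2RBY., which is written at the first mention of a gene and left off afterwards. The first ranked gene was Lcu.2RBY.2g015600, with 408 and 523 normalized reads in the ovule libraries. Its highest group mean elsewhere was 2.33, in the early bent seed coat, which is 199.6 times less. Among the 28 genes this ratio ranged down to 11.9, with a median of 30.5. For 17 of the genes no other group averaged 10 normalized reads, and for 11 genes no single other library reached 10.

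Reads were not divided by transcript length, so the order of levels between genes is an order of reads and not of transcripts. Ovule means ran from 50.4 to 9406 normalized reads with a median of 151, and 5 genes exceeded 1000. Lcu.2RBY.3g050280 was read most, at 8610 and 10202 in the ovules, and it made up 44.8% and 48.7% of all reads of the list there. Its highest mean elsewhere was 237, in the zygote stage whole seed. The next, Lcu.2RBY.1g051420, had 1865 and 1949 normalized reads in the ovules and at most 40.7 on average elsewhere, again in the zygote stage whole seed. Lcu.2RBY.1g001060 had 1922 and 1751 normalized reads in the ovules, against a highest mean of 58.1 in the late bent seed coat. Both ovule libraries of each of these genes stood far above every other library.

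The remaining pair above 1000 were Lcu.2RBY.4g077640 and Lcu.2RBY.7g014250. For 4g077640 the ovules held 1367 and 1016 normalized reads, against 38.2 on average in the zygote stage whole seed. For 7g014250 they held 1046 and 956, against 69.8 in the zygote stage whole seed, which is 14.3 times less. Of the 5 genes with the most ovule reads, 4 had their next highest mean in the zygote stage whole seed. Over the whole list this was so for 6 genes, while the early bent seed coat was next highest for 6, the zygote embryo for 4, the mature embryo for 4 and other groups for the rest. No share over all genes is set beside these counts, so they describe the list only.

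**Figure D1:**
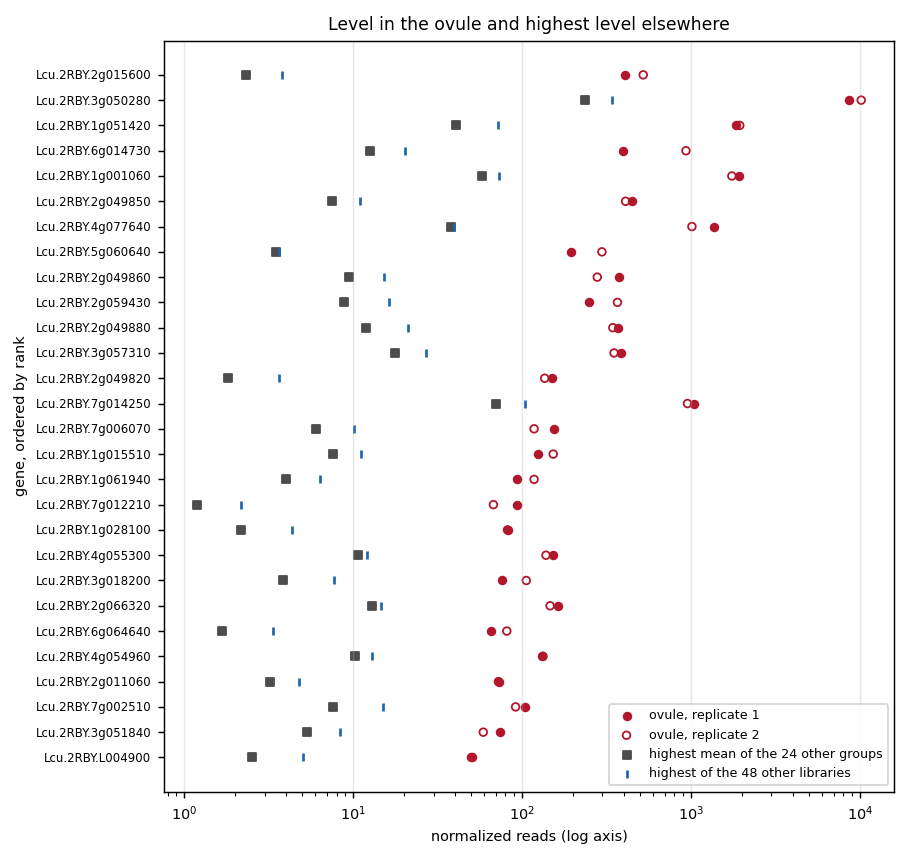
Normalized reads (log axis) of each of the 28 genes in the 2 ovule libraries, with the highest mean of the 24 other groups and the highest of the 48 other single libraries. The distance from the ovule points to the grey squares shows the fold of 11.9 to 199.6 that the choice of genes required to be at least 10.

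The ovule replicates gave similar values for most of the list. They lay within 1.5-fold of each other for 26 of 28 genes (92.9%), compared with 97.0% of the 16049 genes at 50 or more in both ovule libraries. The exceptions were Lcu.2RBY.6g014730, with 399 and 937 normalized reads, and Lcu.2RBY.5g060640, with 197 and 298. At the other end, Lcu.2RBY.7g012210 had 93.5 and 67.9 normalized reads, so replicate 1 exceeded replicate 2 by 0.46 on the log2 scale. In all, replicate 1 was higher for 17 genes and replicate 2 for 11, with no common direction in these differences. The median absolute difference between the replicates was 0.21 on the log2 scale for the list and 0.15 for all 16049 genes.

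Near the limit of the rule, the genes just inside were Lcu.2RBY.2g066320 with an ovule mean 11.9 times its highest other mean, Lcu.2RBY.3g051840 with 12.5 times and Lcu.2RBY.4g054960 with 12.9 times. Just outside were Lcu.2RBY.3g012400 with 9.56 times, Lcu.2RBY.2g009720 with 8.30 times and Lcu.2RBY.5g009720 with 7.53 times. The first of these excluded genes had 331 and 432 normalized reads in the ovules and 39.9 on average in the zygote stage whole seed, so the edge of the list is one of degree. The same rule applied to each of the 25 groups in turn found 40 genes for the mature seed coat, 28 for the ovule, 18 for the zygote embryo, at most 5 for each of 5 further groups and 0 for 17 groups. These groups are not alike, since the whole seed of a later stage contains the embryo and seed coat of that stage. The ovule has no such overlapping group, so the counts are not set against each other.

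Together the 28 genes held 19240 and 20943 normalized reads in the ovule libraries, or 0.110% and 0.117% of all normalized reads there. In the other 48 libraries the sum lay between 17.2 and 615.8, at most 0.00358% of a library. The zygote stage whole seeds held 615.8 and 256.4, of which 3g050280 alone gave 339.6 and 134.8. No gene of the list was at 0 in every other library. Each was above 0 in 7 to 43 of the 48 other libraries, with a median of 17.5.

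**Figure D2:**
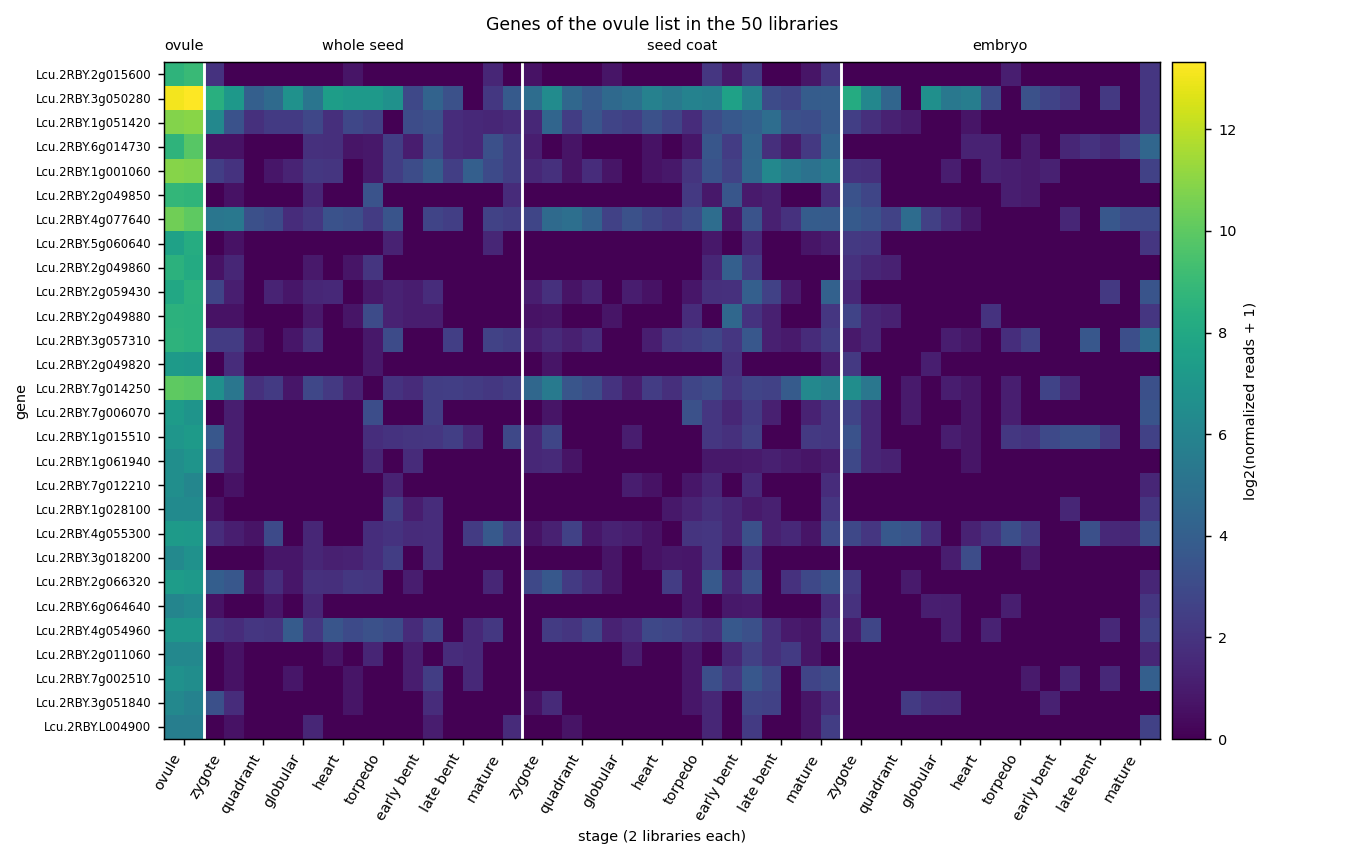
Each row is 1 gene of the list in rank order and each column 1 library, coloured by log2(normalized reads + 1), with the ovule at the left and then whole seed, seed coat and embryo by stage. The 2 ovule columns are bright in all rows, and the fainter marks elsewhere gather at zygote and in a few late libraries.

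The first sample after the ovule on the same tissue basis was the zygote stage whole seed, and there the median gene of the list stood at 0.492% of its ovule level. The highest remainder was 8.38%, for 2g066320. Only 1 gene had no read in either zygote stage whole seed library, Lcu.2RBY.3g018200, named here after its values were seen. It had 75.9 and 106 normalized reads in the ovules, so it was at least 53.7-fold higher there, taking a floor of 3 counts per library for the whole seeds. Another 11 genes had 1 to 3 reads and 16 had more. Of Lcu.2RBY.2g049850, with 450 and 411 normalized reads in the ovules, 1 read was left in the zygote stage whole seeds. The ratio of ovule to zygote stage whole seed was 1534 for this gene, with a 95% counting interval of 275 to 60629. At these depths 3 reads are worth 1.68 to 8.45 normalized reads depending on the library, so a gene at 0 may still be present below that. Amplified reads are not independent molecules, and so these intervals and floors take in counting error only. The ratios of ovule to zygote stage whole seed were also part of the rule that chose the genes. They and their interval take no account of that choice and are a description, not a test.

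Among the 28 identifiers, 4 lay close together on chromosome 2, as numbered in the identifiers: Lcu.2RBY.2g049820, 2g049850, Lcu.2RBY.2g049860 and Lcu.2RBY.2g049880. In the ovules 2g049820 had 151 and 137 normalized reads, 2g049860 had 373 and 279, and 2g049880 had 371 and 346. Summed with 2g049850 they gave 1345 and 1173 normalized reads in the ovules and a median of 0.846 in the 48 other libraries. The 3 identifiers that lie between them, Lcu.2RBY.2g049830, Lcu.2RBY.2g049840 and Lcu.2RBY.2g049870, averaged 3.53, 1.25 and 4.21 normalized reads in the ovules. So the run is interleaved with genes that are hardly read there, and the next identifier before it, Lcu.2RBY.2g049810, averaged 7.33.

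Outside the ovule the 4 neighbours were scarce but did not vanish together. None was found in 22 of the 48 other libraries and all 4 were found in 4. The highest sums of the run were 49.9 normalized reads in early bent seed coat replicate 1, 20.9 in zygote embryo replicate 1 and 20.7 in torpedo whole seed replicate 1. In each case the second library of the group was lower: 7.64 in the early bent seed coat, 9.21 in the zygote embryo and 1.45 in the torpedo whole seed. Whether the 4 genes are near-identical copies that share reads could not be checked here, because no sequence was at hand, so their separate values are uncertain to that extent.

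**Figure D3:**
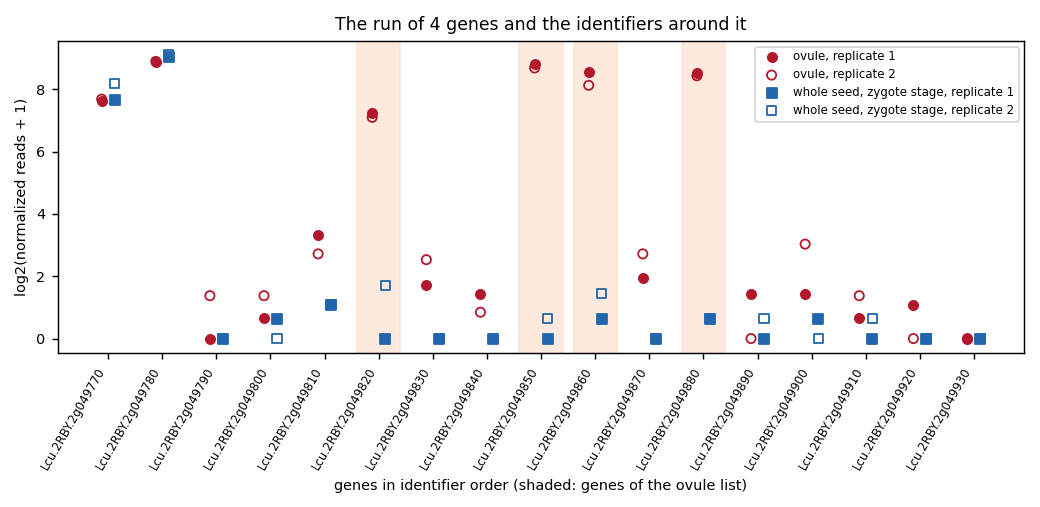
Genes in the order of their identifiers around the run on chromosome 2, with log2(normalized reads + 1) in the 2 ovule libraries (circles) and in the 2 zygote stage whole seed libraries (squares). The 4 shaded genes have ovule means of 143.9 to 430.5 normalized reads, while the 3 genes between them have ovule means of 1.25 to 4.21.

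The list spread over the genome. By the identifiers 8 genes lay on chromosome 2, the run of 4 among them. That is 28.6% of the list, against 16.7% of the 29440 tested genes, which reached 10 normalized reads in 2 or more libraries. Chromosome 1 had 5 genes, chromosomes 3 and 7 had 4 each, and the others had 1 to 3 each. One gene, Lcu.2RBY.L004900, carries no chromosome number. Identifiers directly beside a gene of the list and not on it numbered 53. Of these neighbours 32 averaged under 10 normalized reads in the ovules. The ovule was the highest of the 25 groups for 6 of them (11.3%, against 3.59% of the tested genes). These 6 averaged 1.65 to 5.11 normalized reads there, too few to set beside the genes of the list. The neighbours were not held to the filter of the tested genes, so the 2 shares are not alike.

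The later profiles differed from gene to gene. In the whole seed 3g050280 averaged 237 normalized reads at zygote, 19.3 at quadrant and 71.5 at globular. It averaged 158 at heart and 123 at torpedo, then 12.1 at early bent, 4.47 at late bent and 8.16 at mature. The heart and torpedo means thus exceeded those of quadrant and early bent, though the zygote mean, the highest of these, was 2.52% of the ovule mean of 9406 ± 1125 (SD, n = 2). Its zygote embryo libraries held 289 and 71.2 normalized reads, which shows how far replicates of one group can lie apart at this level.

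After fertilization 1g051420 was found more often in the coat than in the embryo. It was above 0 in 16 of 16 seed coat libraries, with a lowest value of 1.75, a median of 8.11 and a highest of 25.7 normalized reads. In embryos it was above 0 in 6 of 16, with a median of 0 and a highest value of 4.54. Embryo libraries had more of all genes at 0, at a median of 51.4% against 41.8% in seed coats. The part of this in the 2 counts was not tested. The 1g001060 gene behaved differently within the coat, with 73.4 normalized reads in its highest seed coat library and a median of 2.79. It averaged 58.1 in the late bent and 38.6 in the mature seed coat, and its highest embryo library held 5.05. Of the genes with most ovule reads, 4g077640 was the most evenly spread, with medians of 8.15 in seed coats, 5.36 in whole seeds and 3.47 in embryos.

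**Figure D4:**
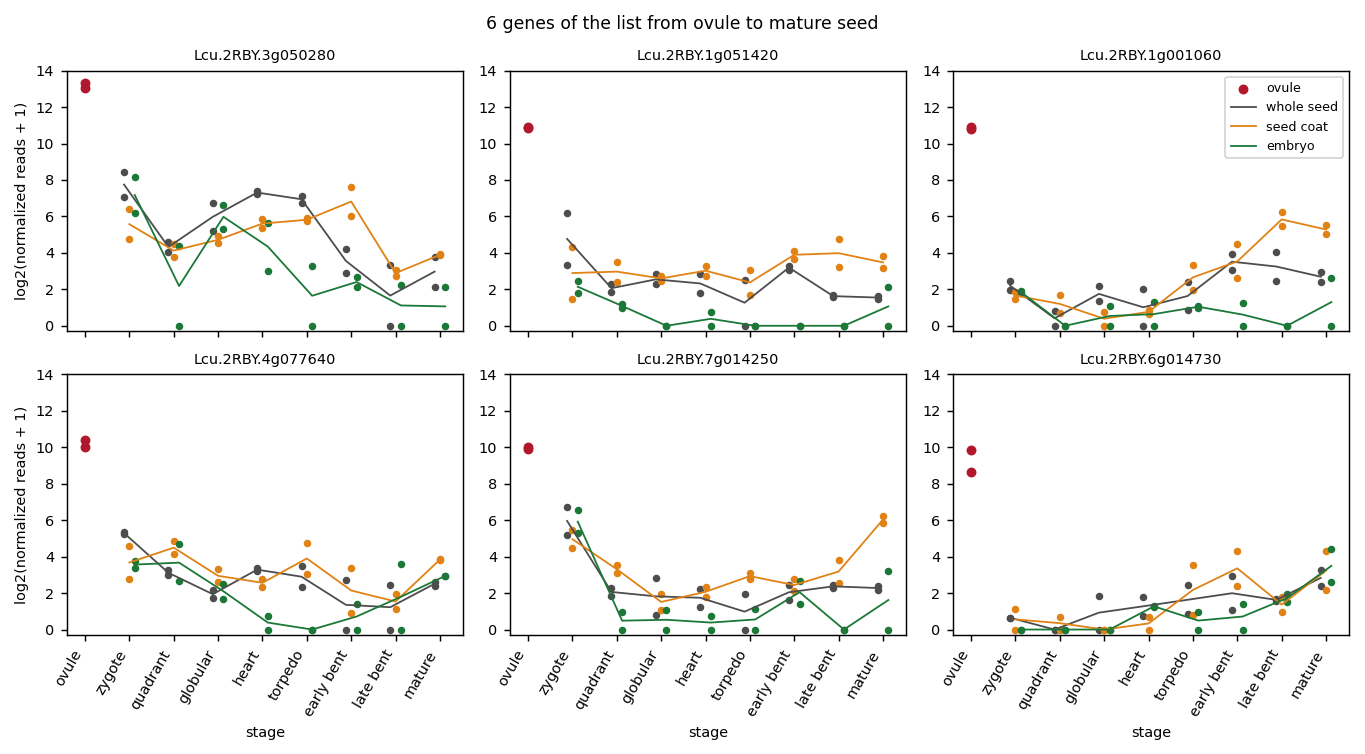
Log2(normalized reads + 1) of 6 genes of the list by stage, with the ovule at the left in red, points for single libraries and lines through the means on this scale for whole seed, seed coat and embryo. The 5 genes with most ovule reads and 6g014730 are all lower in every later group than in the ovule. In the whole seed 3g050280 averages 237 at zygote, 19.3 at quadrant and 158 at heart, and 1g001060 averages 58.1 in the late bent seed coat.

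How many genes of the list were found in a library moved with how many genes were found at all. In the 2 ovule libraries 18.2% and 21.6% of all genes were at 0. Outside the ovule, 4 libraries had under 25% at 0, namely the second replicates of torpedo, early bent and mature seed coat and of mature embryo, and these held 22 to 27 of the 28 genes. The other 44 libraries had 28.1% to 56.1% of genes at 0 and held 4 to 24 genes of the list, with a median of 11. For 10 genes the highest single library outside the ovule was 1 of these 4, and for 13 the highest group contained one. One of the first 10 by rank, Lcu.2RBY.2g059430, had 251 and 368 normalized reads in the ovules, and its highest mean elsewhere, 8.91 in the early bent seed coat, came from libraries at 2.54 and 15.3. Single libraries above 10% of the ovule mean were found for 4 genes, and the highest such value, 15.5%, was that of Lcu.2RBY.7g002510 in mature embryo replicate 2. In the mature embryo the replicates differed most, with 4 genes found in replicate 1 and 22 in replicate 2. The part of these libraries' wide detection in the low levels of the list was not tested. All 28 genes also met the rule when the 4 libraries were left out, a check chosen after seeing the data. The genes had already met it with these libraries, which held the highest single value elsewhere for 10 of them. Leaving out such high values makes the rule easier to meet, so nothing is drawn from this check.

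The tissues also differed in this count. Embryos held a median of 7.5 genes of the list over 16 libraries, seed coats 15.5 and whole seeds 12.5, at a median of 51.4%, 41.8% and 45% of all genes at 0. The zygote embryo libraries held 19 and 15 genes of the list, more than any other embryo library except mature replicate 2, while 50.3% and 50.9% of all genes were at 0 in them.

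**Figure D5:**
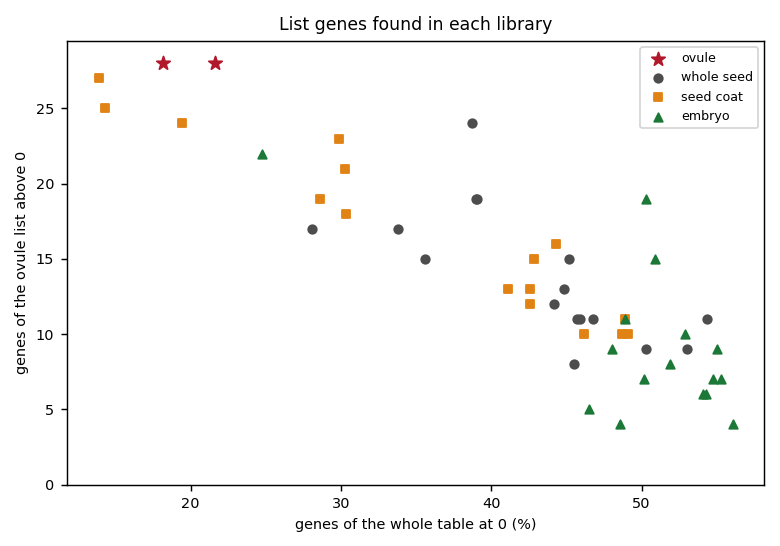
Number of the 28 genes above 0 in each library against the percentage of all genes at 0 in that library, by tissue. The 2 ovule libraries (stars) lie at 28 genes, the 4 other libraries under 25% at 22 to 27, and the remaining 44 libraries at 4 to 24.

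The low levels after fertilization were then compared between embryo and seed coat, which the rule bounds from above but does not order. The test was limma on log2(normalized reads + 1), with the Benjamini-Hochberg adjustment over all 29440 tested genes, and a difference counted with an adjusted p under 0.05 and a fold of at least 2. The ovule libraries alone carried all 28 genes past the filter on low values, though some, such as 3g050280, would also have passed without them. Only 10 of the 28 reached 10 normalized reads in at least 2 of the 32 embryo and seed coat libraries. The rule itself holds the genes low in embryo and seed coat, so their share of calls beside that of all tested genes is set in part by the choice of genes. The counts describe the list, and nothing is read from them about the list as a group. Of the genes called in any of the comparisons, 5 did not reach 10 in 2 of the embryo and seed coat libraries. For these the reads are given without a p-value. Among them 4g054960 reached 10 in 3 libraries outside the ovule, and the others passed the filter only because of the ovule. Replicates are separate samples in the labels and their origin from separate plants is not stated, so the p-values measure a spread between samples that may be technical.

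By the mean of the differences at the 8 stages, 7 genes were lower in embryos than in seed coats (25% of the list) and 0 were higher. Of all tested genes 26.2% were lower, 12.7% were higher and 38.9% differed either way. With quantile scaling 2 were higher and 5 lower. The median difference was -0.36 for the list and -0.24 for all tested genes, on the log2 scale. The largest was that of 1g051420, at -2.57 ± 0.30 (SE, limma adjusted p = 4.18e-09), with the seed coat mean higher at 8 of 8 stages. The next was 1g001060 at -1.92 ± 0.28 (limma adjusted p = 3.54e-07), followed by 7g014250 at -1.86 ± 0.29 (limma adjusted p = 9.93e-07). For 1g001060 the seed coat mean was higher at 5 stages and the embryo mean at 3, namely zygote, globular and heart. For 7g014250 the seed coat mean was higher at 7 stages and the embryo mean at 1, zygote. The embryo libraries of 7g014250 ranged from 0 to 91.7 normalized reads with a median of 0.831, and its seed coat libraries from 1.12 to 73.4 with a median of 6.67, so these overlapped as well.

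The most read gene, 3g050280, was lower in embryos by this test as well, at -1.69 ± 0.42 (SE, limma adjusted p = 0.000702). This did not hold at every stage, since its seed coat mean was higher at 6 stages and its embryo mean at 2. Embryos averaged 180 normalized reads against 54.9 in seed coats at zygote, and 68.9 against 25.6 at globular. Its 16 embryo libraries ranged from 0 to 289 normalized reads with a median of 6.27, and its 16 seed coat libraries from 5.59 to 195 with a median of 27.3, so the tissues overlapped. The other calls were 2g066320 at -1.66 (limma adjusted p = 2.50e-05), 4g077640 at -1.24 (limma adjusted p = 0.00167) and 4g054960. The last reached 10 normalized reads in 1 of the embryo and seed coat libraries. It had medians of 0 in embryos and 3.39 normalized reads in seed coats. The 4g077640 gene missed the required fold, at -0.98, without the 4 libraries with few genes at 0. With a pseudocount of 8 none of the 7 reached the fold of 2, while their limma adjusted p was at most 0.00478.

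At the zygote stage alone 3 genes of the list passed as higher in the embryo (10.7%) and 0 as lower, against 9.9% of all tested genes higher, 8.28% lower and 18.2% in either direction. With quantile scaling 3 were higher and 1 lower, and DESeq2 on the recovered reads called none of the 3 genes. All 3 were tested only because of the ovule, so no difference between embryo and seed coat is drawn from them. For 2g049850 the zygote embryos had 9.08 and 5.86 normalized reads (17 reads in all), against 0 and 0 in zygote seed coats. For 5g060640 they had 3.63 and 3.35 normalized reads (8 reads), against 0 and 0 in seed coats. For 2g049860 they had 2.72 and 1.68 normalized reads (5 reads), again against 0 and 0 in seed coats, and this call was lost when each of the 4 libraries was left out in turn. At zygote a floor of 3 counts per library is worth 1.86 normalized reads in the seed coats.

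Mature and zygote libraries were compared within each tissue, with the filter and the limits used above. In the seed coat 3 genes were higher at mature than at zygote (10.7%) and 0 lower, where 30.6% of all tested genes were higher, 17.9% lower and 48.5% either. With quantile scaling 2 were higher and 1 lower. Leaving out 1 library at a time gave 1 to 7 called genes, with 7 without mature seed coat replicate 1 and 1 without mature seed coat replicate 2. The clearest was 1g001060, with 31.4 and 45.8 normalized reads in mature seed coats against 1.75 and 2.63 in zygote seed coats. It rose by 3.62 ± 0.79 on the log2 scale (SE, limma adjusted p = 0.000283), and the groups did not overlap.

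Fewer reads carried the other 2 increases in the coat. Of 7g002510 mature seed coats had 5.70 and 7.63 normalized reads against 0 and 0 in zygote seed coats, at least 3.58-fold higher (limma adjusted p = 0.00825, and 0.0531 without mature seed coat replicate 2). Of 6g014730 mature seed coats had 3.56 and 18.5 normalized reads, against 1.17 and 0 in zygote seed coats. The ratio of mature to zygote was 15.3, with a 95% counting interval of 3.77 to 135. This gene rested on mature seed coat replicate 2, since its limma adjusted p was 0.00978 with all libraries and 0.206 without that one. It was also 0.103 without zygote seed coat replicate 2.

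In the embryo 7 genes differed between mature and zygote (25%), of which 2 were higher at mature and 5 lower. Of all tested genes 53.4% differed, 27.9% higher and 25.5% lower. With quantile scaling 2 were higher and 9 lower. The largest fall among the called genes was that of 3g050280, with 0 and 3.37 normalized reads in mature embryos against 289 and 71.2 in zygote embryos. Its difference was -6.11 ± 1.18 (SE, limma adjusted p = 6.03e-05). The 2 reads in mature embryos set the ratio of zygote to mature at 105, with a 95% counting interval of 28.9 to 869.

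The gene 7g014250 fell as well, to 0 and 8.42 normalized reads in mature embryos, against 91.7 and 38.5 in zygote embryos, a difference of -4.30 ± 0.82 (SE, limma adjusted p = 3.73e-05). In seed coats it had 73.4 and 56.6 at mature and 21 and 42.7 at zygote, a difference of 1.08 that did not pass the test (limma adjusted p = 0.263). The other 3 genes that passed as lower were 2g049850, 2g049860 and Lcu.2RBY.1g061940, the last named here after its values were seen. They were tested only because of the ovule, and DESeq2 called none of them. All had 0 reads in both mature embryo libraries, and their zygote embryos held 17, 5 and 9 reads. A floor of 3 counts is worth 5.02 normalized reads in the mature embryos, which is above the zygote embryo means of 2g049860 and 1g061940, at 2.20 and 4.02, so for these no lower level at mature is drawn.

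Higher in mature than in zygote embryos were 6g014730 and Lcu.2RBY.3g057310. The 6g014730 gene had 4.99 and 20.2 normalized reads in mature embryos against 0 and 0 in zygote embryos, at least 4.81-fold higher (limma adjusted p = 0.000898). The mature values were 3 and 12 reads, so most came from mature embryo replicate 2. With 1 library left out at a time, its difference lay between 2.58 and 4.41 on the log2 scale. The 3g057310 gene had 8.32 and 27 in mature against 0.908 and 1.68 in zygote embryos, which is 13.4 times more (4.01 to 70.4 by the 95% counting interval). It had a limma adjusted p of 0.00444 that rose to 0.0917 without mature embryo replicate 2. That library is 1 of the 4 with few genes at 0. Without its partner, mature embryo replicate 1, the number of called genes was 13 in place of 7, with 8 higher and 5 lower.

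The change to maturity differed between the tissues for 4 genes (14.3%), all lower in embryo relative to seed coat, where 20.8% of all tested genes were below 0, 15.7% above 0 and 36.5% either. With quantile scaling 1 was above 0 and 5 were below. These were 7g014250, at -5.38 ± 1.15 (SE, limma adjusted p of the interaction 0.000336), 3g050280, 1g001060 and 2g049850, the last tested only because of the ovule. They share the zygote and mature libraries used above. In 1g001060 the difference of -4.18 ± 1.12 (SE, limma adjusted p = 0.00319) stood beside the rise in the coat, while in embryos it had 0 and 5.05 normalized reads at mature and 2.72 and 2.51 at zygote. For 3g050280 the interaction of -4.43 had a limma adjusted p of 0.0359, which was lost in 8 of 19 alternatives. It was 0.165 without zygote embryo replicate 1, 0.149 without zygote seed coat replicate 1, 0.168 without mature embryo replicate 1, and 0.0694 or 0.0764 without mature seed coat replicate 1 or 2. Leaving out mature seed coat replicate 2 reduced the 4 called genes to 2, 7g014250 and 1g001060.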

How the data were processed

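The authors deposited 1 table of signal values per gene and library, which are read counts divided by 1 factor per library. Whole reads were recovered from the steps of the values for 100% of them within 0.001 reads, giving 13019472 to 35634980 reads per library. The library kit, per the labels' protocols, is one for single cells or low input, which amplifies the RNA. CASAVA, Trimmomatic, featureCounts and DESeq2 are named in the submitters' processing notes. Not given in the sources used here are their versions and roles, an aligner and a genome build.

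The fit was made in R 4.3.3 with limma 3.58.1 (trend and robust) on log2(value + 1), which understates changes of genes with few reads, with 1 coefficient for each of 25 groups and 25 residual degrees of freedom. Genes with at least 10 in at least 2 libraries were tested, and the script was tested on simulated data. As alternatives, the pseudocount was 0.5 or 8, the filter 50 or none, the scaling TMM or quantile, with a replicate block, no fold required, each library left out in turn, edgeR 4.0.16 and DESeq2 1.42.0 on the recovered reads, and other limits for the rule.

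The 28 genes and all lists were chosen with earlier results of these data known. Named genes were the 10 first by rank, the 5 with most ovule reads, the extremes of the replicate ratio, up to 2 called genes per comparison and direction, those at the limit of the rule, and runs of neighbours. Gene lists by function and cell type markers could not be used, since identifiers carry no names. In every group the replicates differed by more than sampling noise.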

Additional observations from a re-analysis of the deposited data

Results flagged for a closer look

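The change between zygote and mature differed between embryo and seed coat for 4 genes by a test of that difference itself (limma interaction), which is what draws attention to them. They are 14.3% of the list, against 36.5% of all tested genes. That share is set in part by the choice of genes, so nothing is read from it about the list. The difference, embryo minus seed coat on the log2 scale, was -5.38 for 7g014250, -4.43 for 3g050280, -4.18 for 1g001060 and -3.89 for 2g049850. Over the 19 alternatives of each gene and with limma, edgeR or DESeq2, the adjusted p lay between 2.33e-06 and 0.00857 for 7g014250, between 0.000183 and 0.0485 for 1g001060, and between 0.0106 and 0.168 for 3g050280. For 2g049850 the seed coats had 0 and 2.18 normalized reads at mature and 0 and 0 at zygote, and the zygote embryos 17 reads. This gene was tested only because of the ovule and its call was lost in 3 of 19 alternatives, so no difference between the tissues is drawn from it.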

How the results depend on the processing

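The rule found 37 genes with a fold of 5, 20 with a fold of 20, 40 with a minimum of 20, 19 with a minimum of 100, 27 with TMM or quantile scaling, 24 against single libraries, and 32 with either ovule library left out. No called difference of a named gene changed its direction in any alternative. With a pseudocount of 8, 0 genes were called at zygote, 0 over 8 stages and 4 in the mature embryo comparison. With DESeq2 these were 0 at zygote and 4 in the mature embryo comparison, and quantile scaling gave 11 there, 2 higher at mature and 9 lower. At zygote the main fit called 3 genes and 4 had an unadjusted limma p under 0.05 in it, while edgeR called 2. Quantile scaling split the calls into 3 higher and 1 lower in embryo at zygote, 2 and 5 over 8 stages, 2 and 1 in the seed coat, and 1 and 5 for the interaction. It moved the median difference of all tested genes by -0.41 in the seed coat and by 0.34 in the interaction, and TMM by -0.31 in the seed coat.

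Leaving out each library in turn gave 2 called genes at zygote in every case, 7 to 8 over 8 stages, 1 to 7 in the seed coat, 5 to 13 in the embryo and 2 to 6 for the interaction. The seed coat count was 7 without mature replicate 1 and 1 without mature replicate 2. Where a group was left with 1 library, it was assumed to vary like the others. Without the 4 libraries with few genes at 0, chosen after seeing the data, the counts in this order were 4, 6, 2, 9 and 4. The cause of these shifts was not tested.

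The replicate numbers are shared by the groups, but replicate differences correlated between groups at a median of -0.00164 (-0.47 to 0.54 over 300 pairs of groups). Of these pairs 59 were over 0.1 and 53 under -0.1, with no common direction, so the main fit did not pair the samples by number. Some groups thus shared deviations of either sign, and their source was not tested. With the replicate block the counts were 3 at zygote, 7 over 8 stages, 4 in the seed coat, 8 in the embryo and 5 for the interaction. At the depth of these libraries 3 reads were worth 1.68 to 8.45 normalized reads, so a gene at 0 may lie below that.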
